A study of Bos taurus with 16 samples.

Results

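Proteasome subunits and assembly factors were followed in the liver of 16 steers. The genes were chosen by name, as the transcript clusters (the array's unit, the group of probes for 1 gene) whose annotation gave exactly 1 symbol beginning with PSMA, PSMB, PSMC, PSMD, PSME, PSMF or PSMG, or equal to POMP. PSMB8, PSMB9 and PSMB10, the subunits of the immunoproteasome, were left out of this list. The rule found 48 of 26773 transcript clusters, 1 for each of 48 genes. The rule itself uses no measured value, but the list was chosen with earlier results of these data known. By function, 16 of the genes encode the core, 22 the regulators and 8 the assembly factors. The remaining 2, PSMC3IP (a cofactor of meiotic recombination) and PSME3IP1 (a protein that binds the regulator PSME3), share the naming pattern but are neither subunits nor assembly factors, and they were counted as members of no part.

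The proteasome is the protease that degrades most short-lived and damaged proteins once they have been tagged with ubiquitin. Its barrel-shaped core is built of outer rings of alpha subunits, which gate the entrance, and inner rings of beta subunits, of which PSMB5, PSMB6 and PSMB7 carry the active sites. A regulatory particle caps the barrel, with a base of ATPases that unfold the substrate and a lid that removes its ubiquitin, and dedicated chaperones assemble the parts. In liver, protein breakdown supplies amino acids for glucose production and removes misfolded products of a heavily secreting cell.

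The steers were crossbred castrated males under a year old at the start, kept on a high-concentrate diet with wet distillers grain for 78 days. From a larger group, those farthest from the joint mean of gain and feed intake were picked, 4 in each of the groups high gain-high intake (HGHI), high gain-low intake (HGLI), low gain-high intake (LGHI) and low gain-low intake (LGLI). The groups are therefore phenotypes at the extremes of one trial, made by no treatment, and RNA integrity varied between animals. Breed composition differed between the groups, although breed was considered in the selection. Brahman and Santa Gertrudis, for example, were in the LGHI group alone and Brown Swiss in the LGLI group alone. Breed was not fitted here. Each steer was hybridised to 1 Affymetrix bovine array, and steers are numbered here within their group. All values below are log2 signals as deposited, and a difference of 1 is a doubling.

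Hepatocyte markers fitted the labelled tissue, with mean values from 12.08 to 21.84 for 9 of 10 of them and 8.82 for the other, APOA1. The arrays fell into 2 sets of 8 by their median signal, 7.41 to 7.47 in set 1 and 7.16 to 7.28 in set 2. The labels name no such sets, but set 1 is the first 8 samples of the series and set 2 the last 8. The animal numbers in the sample titles follow the same order. Set 1 held HGHI steer 1, HGLI steers 1 and 2, LGHI steers 1 and 2, and LGLI steers 1, 2 and 3. Of the 48 members, 40 were lower in set 2, with a median difference of -0.26, beside -0.22 over all transcript clusters, of which 72.6% were lower. The difference was uneven over the parts of the proteasome: its median was -0.05 for the core (12 of 16 lower), -0.40 for the regulators (20 of 22 lower) and -0.21 for the assembly factors (6 of 8 lower). What separates the sets was not tested. Because the sets hold 2 steers each of the HGLI and the LGHI group, and are unbalanced in equal and opposite ways in the other groups, fitting the set as a block leaves the estimates of the interaction and of the difference between those groups the same, and it moves the gain and intake effects.

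The comparison over the 4 groups asked whether proteasome gene expression differed with gain, with intake or with their combination. No member passed an adjusted p of 0.05 in limma over all 26773 transcript clusters, over the 4 groups or in any contrast, and neither did any other transcript cluster (0% called). The adjusted p was 0.998 or more for every member in every test. At an unadjusted p of at most 0.05, 2 of the 48 members differed over the 4 groups, PSMD5 and PSMF1, beside 2.33% of all transcript clusters. For the gain effect (high minus low gain), 0 members were higher, beside 1.19% of all, and the same 2 were lower, beside 2.29%. For the intake effect (high minus low intake), 0 were higher, beside 1.23%, and 0 were lower, beside 1.64%. The interaction, which is the gain effect at high intake minus that at low intake, was positive for 3 members (PSMA1, PSMB5 and PSMD2), beside 1.15%, and negative for 0, beside 1.66%. In the HGLI minus LGHI difference, which sets the most against the least feed-efficient steers, 1 member was higher (PSMC5), beside 1.56%, and 2 were lower (PSMD5 and PSMF1 again), beside 1.98%. With 4 arrays in each group, precision is limited by the number of animals. In whole liver tissue, fewer cells of a type and less RNA per cell cannot be told apart.

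**Figure D1:**
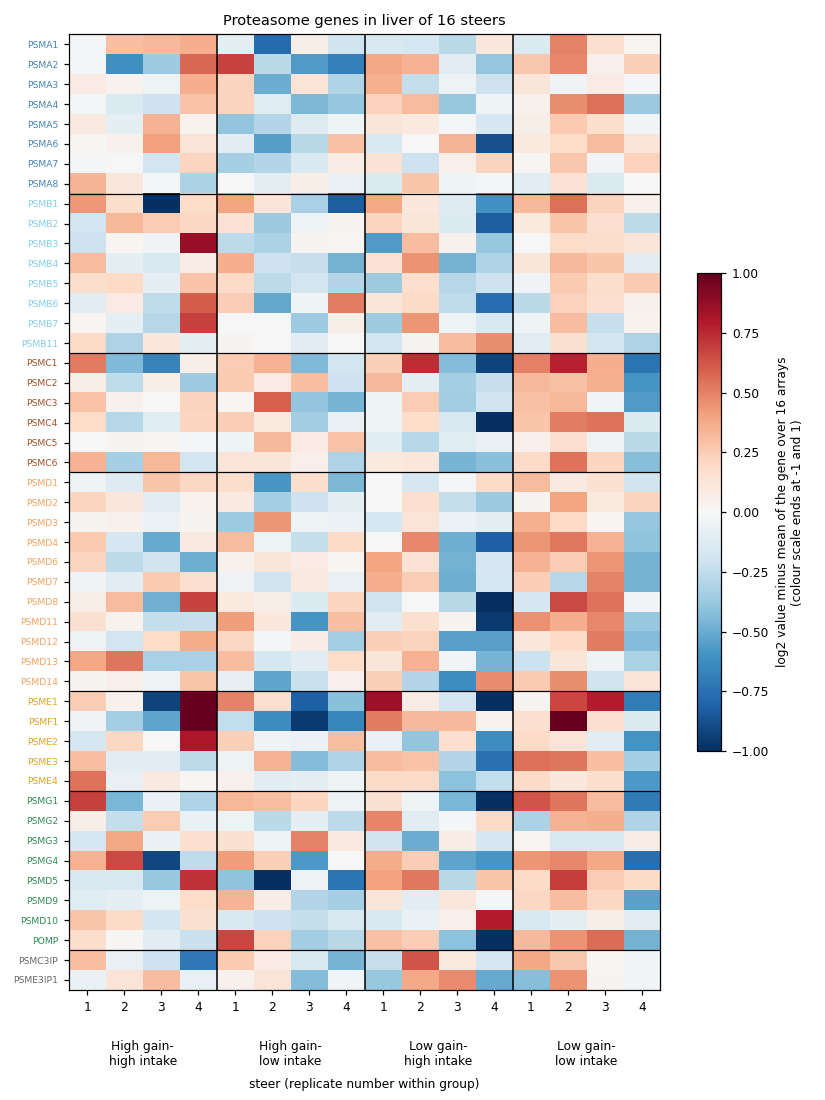
Log2 value of each of the 48 members (rows, in the order alpha ring, beta ring, base ATPases, other base and lid subunits, other regulators, assembly factors and no part) in each of 16 steers (columns, by group), as the deviation from that gene's mean over 16 arrays. The regulatory rows of LGLI steers 1, 2 and 3 are mostly red and those of LGLI steer 4, the one animal of its group in array set 2, mostly blue.

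The 2 members that were lower at high gain act outside the subunits of the particle itself. PSMF1 encodes PI31, a protein that binds the core and was first described as an inhibitor of it. It was at 10.71, 10.41, 10.22 and 11.74 in the HGHI steers 1 to 4, at 10.51, 10.12, 9.80 and 10.09 in the HGLI steers, at 11.27, 11.07, 11.08 and 10.78 in the LGHI steers, and at 10.91, 11.74, 10.92 and 10.61 in the LGLI steers. All 4 HGLI steers lay below all 8 low gain steers, whereas HGHI steer 4, at 11.74, was level with the highest of the 16. The group means were 10.77 ± 0.68, 10.13 ± 0.29, 11.05 ± 0.20 and 11.04 ± 0.49 (SD, n = 4), in the same order. The gain effect was -0.60 (standard error 0.214, unadjusted p = 0.0134, exact permutation p = 0.0289), a level 1.51-fold lower at high gain, and it was -0.67 within array set 1 and -0.40 within set 2. Between the HGLI and the LGHI group the difference was -0.92 (standard error 0.303, unadjusted p = 0.00795), or 1.89-fold. Its exact permutation p was 0.0286, the smallest that 4 steers against 4 allow, and the difference was -0.86 and -0.98 within the sets. The gain difference was -0.92 among low intake steers and -0.28 among high intake steers, and the test of the difference between these (the interaction) gave 0.64 (standard error 0.429, unadjusted p = 0.156).

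PSMD5 encodes a chaperone that holds part of the ATPase base during assembly and leaves before the particle is finished. Its values were 9.01, 9.00, 8.79 and 9.89 in the HGHI steers, 8.76, 8.05, 9.12 and 8.43 in the HGLI steers, 9.57, 9.69, 8.88 and 9.44 in the LGHI steers, and 9.35, 9.86, 9.41 and 9.36 in the LGLI steers. The HGLI steers were all below the LGLI steers, and they overlapped the LGHI steers through steer 3 of each group. As for PSMF1, HGHI steer 4 stood above the other high gain steers. The gain effect was -0.56 (standard error 0.192, unadjusted p = 0.0099, exact permutation p = 0.0214), or 1.48-fold lower at high gain, with -0.87 within array set 1 and -0.26 within set 2. The HGLI steers were 0.80 below the LGHI steers on the log2 scale (difference -0.80, standard error 0.271, unadjusted p = 0.00932, exact permutation p = 0.0571), or 1.75-fold, and the difference was -1.22 and -0.39 within the sets. Over the 4 groups together, the unadjusted p was 0.0189 for PSMD5 (exact permutation p = 0.0325) and 0.0252 for PSMF1 (exact permutation p = 0.0476). Without HGLI steer 2, or without steer 4 of that group, both genes were above an unadjusted p of 0.05 over the 4 groups, while the gain effect of each stayed at or below 0.05 with any 1 steer left out.

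The values of PSMD5 and PSMF1 followed each other across animals. This pair was picked after its values were seen, as the 1 relation computed between 2 members, and no p is given for it. Pearson's r was 0.781 and Spearman's rho 0.776 over 16 steers, and r was 0.751 without the 2 steers farthest from the median of PSMD5. Within array sets 1 and 2, of 8 steers each, r was 0.936 and 0.688. With the group means removed r was 0.574, and with the set means removed as well 0.599. Both values include the HGHI steer that stood far above the rest of its group for both genes. The 2 steers left out above were HGLI steers, so r was not computed without that HGHI steer. Whether the relation holds within groups apart from it was not tested.

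**Figure D2:**
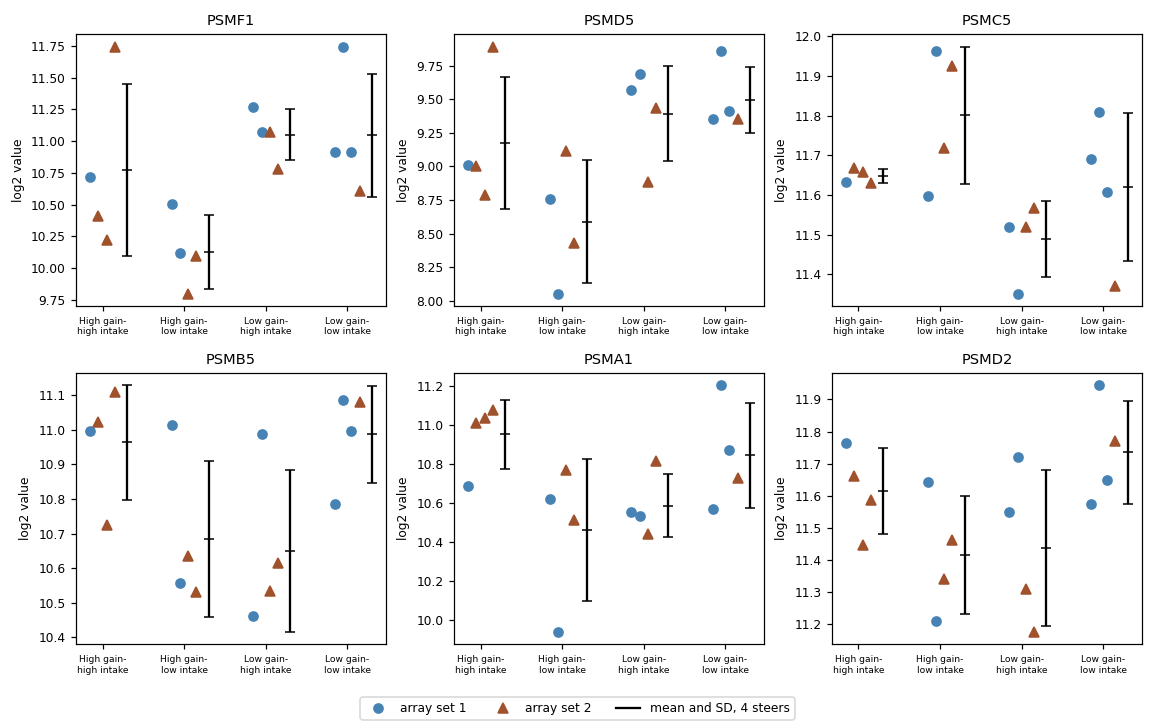
Log2 value of 6 members in each steer (points, circles for array set 1 and triangles for array set 2), with the mean and SD of each group of 4 as a bar to the right. PSMF1 and PSMC5 have no overlap between the HGLI and LGHI groups, with opposite directions, and PSMB5, PSMA1 and PSMD2 have higher means in the HGHI and LGLI groups. Each panel has its own axis.

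The second pattern, with means highest where gain and intake matched, is given first for the 16 core genes. It was not theirs alone, as most regulators and all assembly factors also had an interaction above 0, given below. The LGLI group had the highest mean for 8 of the 16 and the HGHI group for 7, beside 32.0% and 14.8% of all transcript clusters. The lowest mean was in the HGLI group for 9 and in the LGHI group for 5, beside 22.6% and 21.8%. The interaction was above 0 for 15 of the 16 (median 0.34), whereas the gain effect was above 0 for 6 (median -0.01) and the intake effect for 9 (median 0.01). With the set fitted as a block these were 7 (median -0.02) and 12 (median 0.07). All 8 alpha ring genes had an interaction above 0 (median 0.31), and 7 of 8 beta ring genes did (median 0.40). Over all transcript clusters 44.9% were above 0, with a median of -0.04. These counts and medians over a part are descriptions, with no test.

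PSMA1, an alpha ring subunit, had the smallest p over the 4 groups in its ring. It was at 10.69, 11.01, 11.03 and 11.07 in the HGHI steers, 10.62, 9.94, 10.77 and 10.51 in the HGLI steers, 10.55, 10.53, 10.44 and 10.82 in the LGHI steers, and 10.57, 11.20, 10.87 and 10.73 in the LGLI steers. The first and last of these groups overlapped the other groups, through HGHI steer 1 and LGLI steers 1 and 4. The interaction was 0.75 (standard error 0.277, unadjusted p = 0.0157, exact permutation p = 0.00606), made of a gain difference of 0.37 at high intake and -0.38 at low intake. It was 0.75 within array set 1 and 0.50 within set 2.

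PSMB5 encodes the active subunit that cuts after bulky hydrophobic residues. Its values were 11.00, 11.02, 10.73 and 11.11 in the HGHI steers, 11.02, 10.56, 10.63 and 10.53 in the HGLI steers, 10.46, 10.99, 10.53 and 10.61 in the LGHI steers, and 10.79, 11.09, 11.00 and 11.08 in the LGLI steers. All 8 steers of the matched groups were at 10.73 or above. Of the other steers, 6 were at 10.63 or below, and the exceptions were HGLI steer 1 and LGHI steer 2, both of array set 1. The interaction was 0.62 (standard error 0.236, unadjusted p = 0.0191, exact permutation p = 0.00793), with 0.44 and 0.88 within the sets. The gain difference was 0.31 at high intake and -0.30 at low intake.

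The other 2 active subunits showed wide intervals around 0. PSMB6, which cuts after acidic residues, was at 9.45, 9.65, 9.31 and 10.16 in the HGHI, 9.80, 9.05, 9.52 and 10.08 in the HGLI, 9.68, 9.75, 9.31 and 8.80 in the LGHI and 9.29, 9.79, 9.73 and 9.60 in the LGLI steers. The 4 groups overlapped, and the interaction was 0.25 (95% confidence interval -0.53 to 1.03, unadjusted p = 0.51). PSMB7, which cuts after basic residues, was at 12.65, 12.54, 12.34 and 13.31, at 12.63, 12.63, 12.26 and 12.69, at 12.27, 13.07, 12.59 and 12.47, and at 12.59, 12.94, 12.40 and 12.66 in the same order of groups. Its groups overlapped as well, with an interaction of 0.20 (95% confidence interval -0.46 to 0.87, unadjusted p = 0.525) and a gain effect of 0.01 (95% confidence interval -0.33 to 0.34). These intervals include the values found for PSMB5, and whether the active subunits differ from each other in the interaction was not tested.

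The remaining core genes had interactions from -0.27 to 0.66. The one below 0 was PSMB11, at -0.27, which encodes a beta subunit known from the thymus and which, with the germ cell subunit PSMA8, was the only member to have a value below 6.09, the lowest of the 25th percentiles of the arrays. PSMA6, at 0.66 (95% confidence interval -0.04 to 1.36), was the highest of these genes, and without LGHI steer 4 it was 0.43. PSMB3 was at 0.56 (-0.14 to 1.27), PSMB1 at 0.44 (-0.53 to 1.41), PSMB2 at 0.43 and PSMA5 at 0.42 (-0.03 to 0.87). By the ordinary F without moderation, the test of the study's methods, PSMA5 and PSMC5 were also at an unadjusted p of at most 0.05 over the 4 groups. PSMA5, an alpha ring subunit, was at 9.81, 9.62, 10.06 and 9.75 in the HGHI, 9.32, 9.42, 9.58 and 9.67 in the HGLI, 9.84, 9.82, 9.69 and 9.54 in the LGHI and 9.77, 9.97, 9.89 and 9.69 in the LGLI steers. All 4 HGLI steers lay below all 4 LGLI steers, and they overlapped the HGHI and LGHI steers. In the most against least feed-efficient difference, 7 of 8 alpha ring genes were below 0 (median -0.17), beside a median of -0.01 over all transcript clusters. None of these 8 was at an unadjusted p of at most 0.05 in it, by limma and by the ordinary F.

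**Figure D3:**
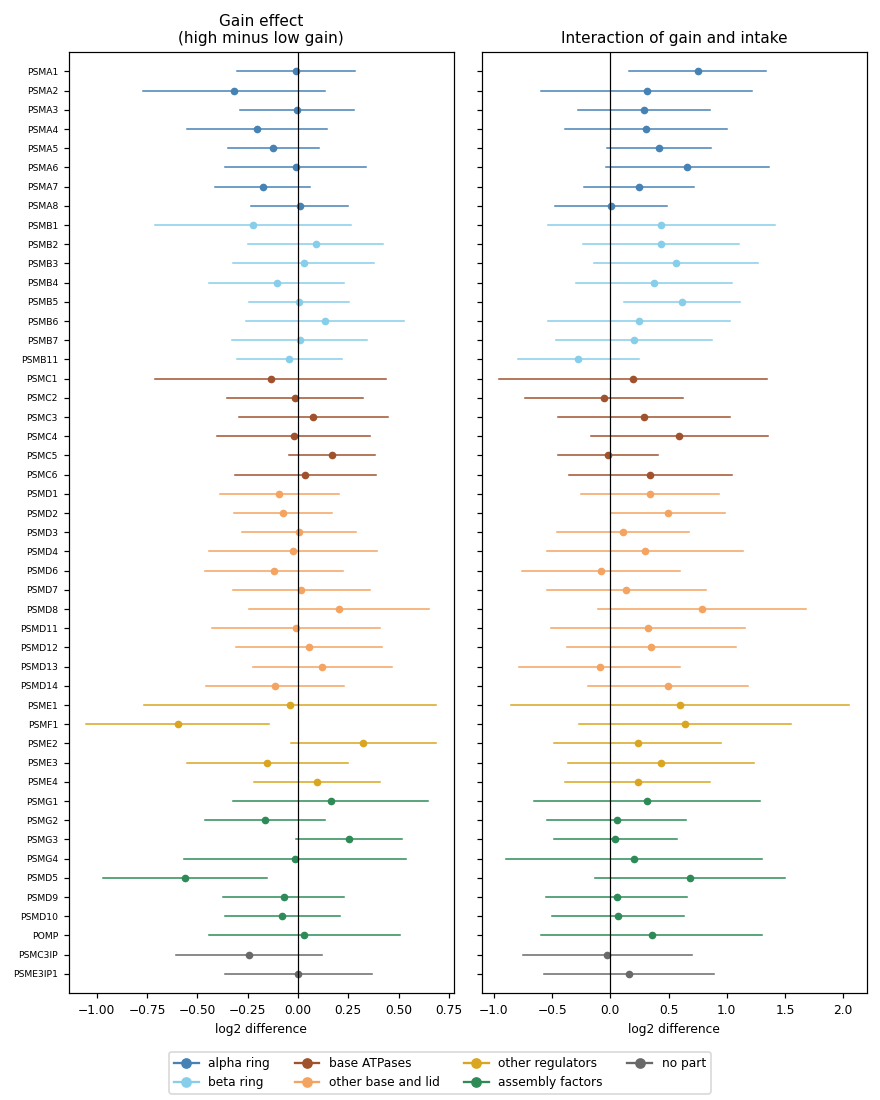
Gain effect (left) and interaction (right) of each of the 48 members as log2 differences, with 95% confidence intervals from limma, coloured by the part of the proteasome. The gain effects scatter on both sides of 0, with PSMF1 and PSMD5 the 2 whose intervals end below it, while 42 of 48 interactions are above 0, with PSMA1, PSMB5 and PSMD2 the 3 whose intervals begin above it.

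The 22 regulators include the 6 ATPases of the base, the 11 other subunits of base and lid that were on the list, and 5 proteins that cap or bind the core in other ways. Their interaction was above 0 for 18 (median 0.31). The median was 0.19 without LGHI steer 4 and 0.49 without LGLI steer 4. The LGLI group had the highest mean for 14 of the 22, and the LGHI group the lowest for 13, beside 32.0% and 21.8% of all transcript clusters. Array set 1, in which most regulators were higher, held 3 LGLI steers, 2 each of the HGLI and LGHI groups and 1 HGHI steer. These ranks of group means were not adjusted for the set. The intake effect was above 0 for 7 (median -0.06), but for 12 (median 0.00) with the array set as a block and for 11 (median -0.00) after quantile normalization, so that its direction over the regulators depends on the array sets and the scaling. The HGLI minus LGHI difference was above 0 for 17 (median 0.07). The last count was 5 of 16 for the core (median -0.08), so that the medians of core and regulators lay on opposite sides of 0. These counts, and that of the base ATPases below, are not set beside the share of all transcript clusters above 0 in this difference. Neither the direction of these medians nor the gap between them was tested. Without LGHI steer 2 the core median became 0.00, and the regulatory median was -0.00 without LGHI steer 4, 0.00 without LGHI steer 3, and 0.22 without LGHI steer 1.

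Among the base ATPases, the HGLI minus LGHI difference was above 0 for 6 of 6 (median 0.18), and the intake effect below 0 for 5 of 6 (median -0.17). Fitted with the set as a block, the intake effect was below 0 for 4 of 6 (median -0.06), and without LGHI steer 4 the HGLI minus LGHI difference was above 0 for 3 of 6 (median 0.04). PSMC5 was the one at an unadjusted p of at most 0.05. Its values were 11.63, 11.67, 11.66 and 11.63 in the HGHI, 11.60, 11.96, 11.72 and 11.92 in the HGLI, 11.52, 11.35, 11.52 and 11.57 in the LGHI and 11.69, 11.81, 11.61 and 11.37 in the LGLI steers. Each HGLI steer was above each LGHI steer, and the HGHI steers varied least of any group of any member named here (11.65 ± 0.02, SD, n = 4). The difference was 0.31 (standard error 0.143, unadjusted p = 0.0443, exact permutation p = 0.0286, the smallest possible), or 1.24-fold, with 0.35 and 0.28 within the sets. PSMC5 had the smallest spread within groups of all members, an SD of 0.136. The unadjusted p exceeded 0.05 under 13 of 23 alternatives, 11 of which leave out 1 steer, with the difference between 0.25 and 0.38.

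PSMC4 had the smallest p over the 4 groups among the ATPases (unadjusted p = 0.203). It was at 10.95, 10.48, 10.64 and 10.98 in the HGHI, 11.01, 10.86, 10.42 and 10.69 in the HGLI, 10.72, 10.95, 10.60 and 9.68 in the LGHI and 11.04, 11.28, 11.31 and 10.63 in the LGLI steers. LGHI steer 4 was the lowest of the 16, and 3 of the 4 LGLI steers were the highest. The interaction was 0.59 (95% confidence interval -0.17 to 1.35, unadjusted p = 0.119), with an unadjusted p of 0.0456 when the array set was a block, and it was 0.32 without LGHI steer 4.

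In the rest of base and lid, 9 of 11 genes had an interaction above 0 (median 0.32). PSMD2, a scaffold of the base that receives substrates and their shuttles, was at 11.76, 11.66, 11.45 and 11.59 in the HGHI, 11.64, 11.21, 11.34 and 11.46 in the HGLI, 11.55, 11.72, 11.31 and 11.18 in the LGHI and 11.58, 11.94, 11.65 and 11.77 in the LGLI steers. The groups overlapped, with the LGLI steers at 11.58 or above. The interaction was 0.50 (standard error 0.23, unadjusted p = 0.0468, exact permutation p = 0.0162), with 0.42 and 0.69 within the sets, and the unadjusted p exceeded 0.05 under 14 of 23 alternatives.

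PSMD8, a lid subunit, had an interaction of 0.79, the highest estimate of the 48 members with all 16 steers (95% confidence interval -0.10 to 1.68, unadjusted p = 0.0793, exact permutation p = 0.099). Its values were 10.79, 11.05, 10.25 and 11.40 in the HGHI, 10.82, 10.79, 10.59 and 10.94 in the HGLI, 10.53, 10.72, 10.45 and 9.39 in the LGHI and 10.56, 11.39, 11.27 and 10.70 in the LGLI steers. The same LGHI steer 4 that was lowest for PSMC4 was far below all others here, and the remaining values overlapped. Without that steer the interaction of PSMD8 was 0.49, the 6th of the members, and that of PSMA1, then the highest, was 0.83.

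PSMD14, the lid enzyme that cuts ubiquitin chains off the substrate, was at 10.17, 10.19, 10.10 and 10.41 in the HGHI, 10.06, 9.61, 9.91 and 10.19 in the HGLI, 10.37, 9.84, 9.51 and 10.61 in the LGHI and 10.40, 10.60, 9.94 and 10.26 in the LGLI steers. The lowest and the highest of the 16 were both LGHI steers. Its interaction was 0.49 (95% confidence interval -0.19 to 1.18, unadjusted p = 0.146) and its intake effect 0.03 (95% confidence interval -0.31 to 0.37).

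The other regulators besides PSMF1 are PSME1 and PSME2, which form the interferon-induced cap, PSME3, its nuclear relative, and PSME4, a large cap known from germ cells and DNA repair. All 5 interactions were above 0 (median 0.44). PSME1 had the largest spread within groups of all members, an SD of 0.760, and its gain effect of -0.04 had a 95% confidence interval of -0.77 to 0.69. PSME2 had the largest gain effect above 0 of the 48, at 0.32 (95% confidence interval -0.04 to 0.68, unadjusted p = 0.0743).

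The 8 assembly factors had interactions closer to 0 in the median, at 0.13, with 8 of 8 above 0. After quantile normalization 5 of the 8 were above 0 (median 0.12), and without LGLI steer 4 the median was 0.37. PSMD5 (0.68) had the largest and PSMG3, a chaperone of the alpha ring, the smallest (0.04). PSMG3 was the gene nearest to the threshold in this part apart from PSMD5, with a HGLI minus LGHI difference of 0.37 (95% confidence interval -0.00 to 0.75, unadjusted p = 0.0508). PSMG1, which pairs with PSMG2 on the alpha ring, had a difference of 0.56 in the same direction (95% confidence interval -0.13 to 1.24), and PSMG2 one of -0.31 (-0.73 to 0.12). POMP, the factor that guides the beta ring, had one of 0.31 (-0.36 to 0.98). The chaperones of the base other than PSMD5 were near or below 0, with PSMD9 at -0.08 (-0.51 to 0.35) and PSMD10 at -0.34 (-0.74 to 0.06). The 2 members in no part had interactions of -0.03 (PSMC3IP) and 0.16 (PSME3IP1).

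**Figure D4:**
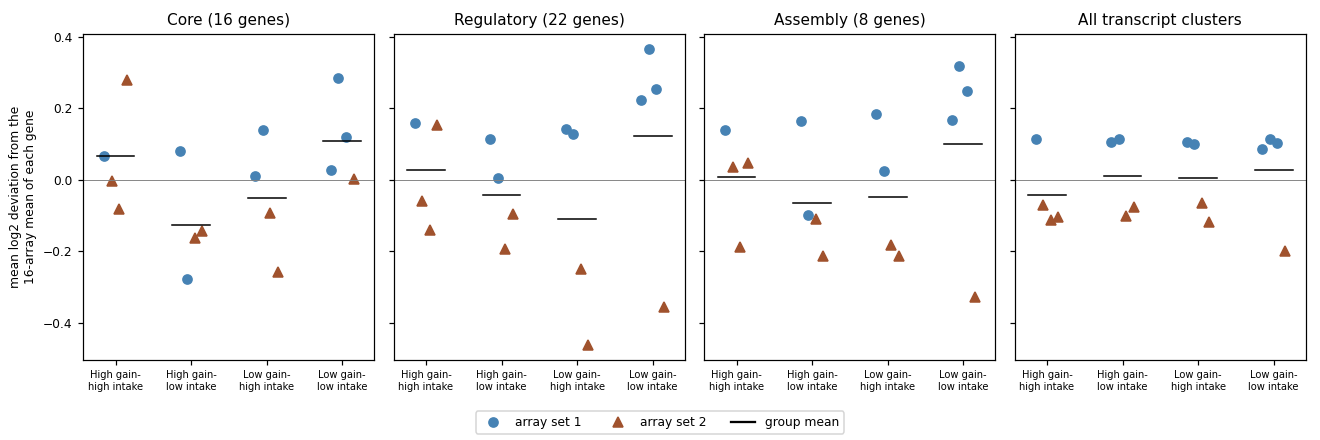
Mean deviation of the genes of each part from their own mean over 16 arrays, in log2 units, for each steer (circles for array set 1, triangles for array set 2), with the group mean as a line and all 26773 transcript clusters at the right. The regulatory and assembly panels split by array set, most of all in the LGLI group, where steer 4 is the one animal of set 2, and the core panel does so less.

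Averaged over its genes, the core stood at 0.07 in the HGHI, -0.12 in the HGLI, -0.05 in the LGHI and 0.11 in the LGLI group, as mean deviations on the log2 scale. The range over steers was -0.08 to 0.28, -0.28 to 0.08, -0.26 to 0.14 and 0.00 to 0.29. The regulators stood at 0.03, -0.04, -0.11 and 0.12 in the same order, with a range of -0.35 to 0.37 in the last group, and the assembly factors at 0.01, -0.06, -0.05 and 0.10, with -0.33 to 0.32 in the last. The ranges of all 4 groups overlapped in every part. The low value at the end of each of the last 2 ranges was LGLI steer 4, and the other 3 steers of that group, all of array set 1, were the 3 highest of the 16 for the regulators.

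Counted over all 48 members, the interaction was above 0 for 42, with a median of 0.30. The highest group mean was in the LGLI group for 27 and in the HGHI group for 13, beside 32.0% and 14.8% of all transcript clusters. The lowest was in the LGHI group for 22 and in the HGLI group for 19, beside 21.8% and 22.6%. HGHI exceeded LGHI for 34 members (median 0.10), beside 40.6% of all transcript clusters (median -0.05). HGLI exceeded LGLI for 9 (median -0.16), beside 47.4% of all (median -0.02). Unlike the interaction, these differences are not balanced over the array sets. Within array set 1 the interaction was above 0 for 38 members (median 0.21), beside 49.2% of all transcript clusters (median -0.01). Within set 2 it was above 0 for 29 (median 0.23), beside 40.7% of all (median -0.12). It was above 0 in both sets for 21 members. The share of all transcript clusters above 0 in both was not computed, and agreement of single members between the sets was not tested. Within a set some groups have 1 steer. The count was 40 after quantile normalization, 44 after subtraction of each array's median, and 39 to 45 with 1 steer left out.

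The direction of the interaction went with signal level across the whole array. Of transcript clusters with a mean value below 6, 28.4% had an interaction above 0, and of those at 13 or above 69.2%. Members lie mostly between 9 and 12. In the step from 9 to 10, 11 of 12 members were above 0 (median 0.24), beside 60.6% of all transcript clusters in it. From 10 to 11 there were 12 of 13 (median 0.49), beside 62.6%, and from 11 to 12 there were 10 of 11 (median 0.34), beside 60.0%. With the dimmer transcript clusters left out, 57.2% of the rest were above 0 (median 0.06) and 41 of the 45 members kept (median 0.31). The part of signal level in the members' direction was not tested further.

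**Figure D5:**
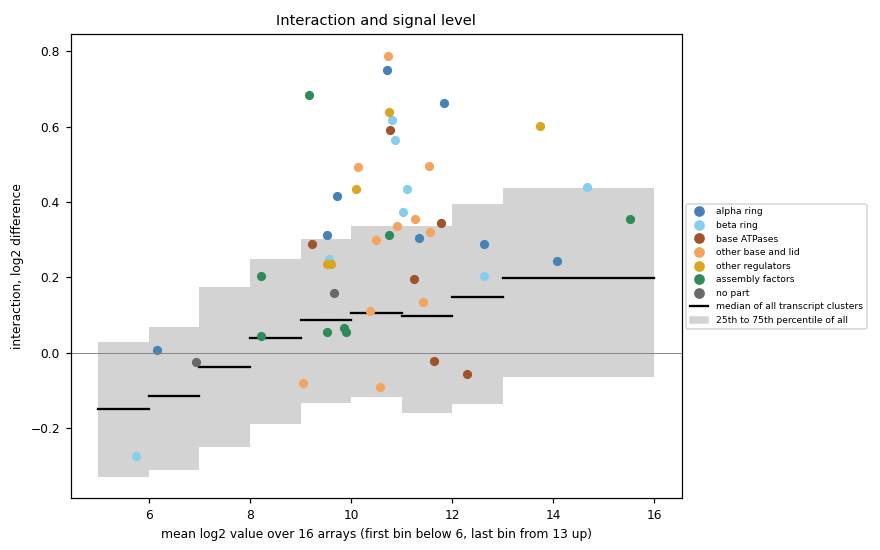
Interaction of each member (points, coloured by part) against its mean log2 value over 16 arrays, with the median (line) and the 25th to 75th percentile (grey) of all transcript clusters in steps of mean value. The median of all rises from below 0 at low signal to above 0 at high signal, and most members between 9 and 12 lie above the median of their step.

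Members also varied together from steer to steer, as a description over 16 animals that share 2 array sets. With group and set means removed, the mean Pearson r between pairs was 0.132 over the 48 members, beside 0.006 over all transcript clusters and 0.032 over the brighter ones, at or above the median of mean signal. It was 0.267 within the beta ring, 0.106 within the alpha ring, 0.168 within the regulators and 0.091 within the assembly factors. Between core and regulators it was 0.138. PSMD4, the ubiquitin receptor of the base, had the highest mean r with the other members, 0.297, followed by PSMB6 at 0.286. PSMD10, an assembly chaperone also known as the oncoprotein gankyrin, had the lowest, -0.122. With only the group means removed, the ATPases were at 0.497 and the regulators at 0.365, values that include the shift between array sets. The median SD within groups was 0.324 for members, beside 0.357 for all transcript clusters and 0.402 for the brighter ones, and it was smallest in the alpha ring, at 0.249.

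The immunoproteasome subunits, which replace the active beta subunits in immune cells and under interferon, were not at an unadjusted p of at most 0.05 in any contrast, by limma. PSMB8 was at 8.97, 8.73, 9.05 and 9.91 in the HGHI, 9.27, 8.19, 8.75 and 8.17 in the HGLI, 11.08, 8.80, 9.02 and 8.55 in the LGHI and 9.46, 8.53, 9.43 and 8.70 in the LGLI steers. PSMB9 was at 6.33, 6.90, 6.97 and 7.00 in the HGHI, 7.09, 6.42, 6.98 and 6.41 in the HGLI, 8.43, 6.67, 7.16 and 6.31 in the LGHI and 6.53, 6.61, 6.90 and 6.73 in the LGLI steers. PSMB10 was at 9.84, 9.89, 9.97 and 10.99 in the HGHI, 10.84, 10.31, 9.57 and 9.91 in the HGLI, 11.50, 9.93, 11.02 and 8.60 in the LGHI and 10.76, 10.05, 10.54 and 9.89 in the LGLI steers. LGHI steer 1 was the highest of the 16 for all 3, and the groups overlapped in each. The same steer was the lowest of the 16 for PSMB5 (10.46), whose place PSMB8 takes. Counted from the highest, it was 7th for PSMB6 (9.68) and 15th for PSMB7 (12.27). HGHI steer 4, which was 2nd for PSMB8 (9.91), was the highest for PSMB5 (11.11). A link between these subunits was not tested. The mean of LGHI steer 1 over 8 markers of T and NK cells was 8.18, and the other 15 steers ranged from 6.92 to 7.43. The part of these cells in the result was not tested.

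Other proteins of the pathway were read from lists of genes that are no members. Of 20 listed proteins that bind the proteasome, 16 were measured, by 17 transcript clusters. In 4 of these the intake effect was below 0 at an unadjusted p of at most 0.05 (USP14, a deubiquitinase of the base, -0.30; SEM1, a small lid subunit with another naming scheme, -0.34 and -0.41 in its 2 transcript clusters; UBQLN1, a shuttle for ubiquitinated proteins, -0.32), beside the 1.64% given above. Fitted with the set as a block, USP14 stayed below that threshold (-0.30, unadjusted p = 0.0454), whereas SEM1 (-0.25 and -0.29, unadjusted p = 0.0731 and 0.0598) and UBQLN1 (-0.29, unadjusted p = 0.0623) did not. In the HGLI minus LGHI difference, 3 of the 17 were higher at that threshold by limma and 0 lower, beside 1.56% and 1.98% of all. These were USP14 (0.53, standard error 0.195, unadjusted p = 0.0151), 1 SEM1 transcript cluster (0.58, unadjusted p = 0.0388) and ZFAND2A (2.55, unadjusted p = 0.0136). With the set as a block both SEM1 transcript clusters were higher (unadjusted p = 0.0252 and 0.0102), and PAAF1 of the same list was lower (-0.36, unadjusted p = 0.0334). ZFAND2A, a stress-induced protein that binds the cap, was at 10.69, 9.28, 9.15 and 7.95 in the HGHI, 8.96, 11.34, 10.12 and 14.60 in the HGLI, 8.61, 8.62, 8.29 and 9.30 in the LGHI and 10.22, 8.50, 8.43 and 7.46 in the LGLI steers. It was the 1 gene of this list at an unadjusted p of at most 0.05 over the 4 groups (unadjusted p = 0.039, exact permutation p = 0.0574), with HGLI steer 4 far above the others. Of the VCP unfoldase and its cofactors (8 of 9 measured), the transcription factors of proteasome genes and their processing enzymes (8 of 8) and the ubiquitin supply (2 of 6), 0 were at an unadjusted p of at most 0.05 in any contrast by limma without the block. With the set as a block, NGLY1, of the list of transcription factors and processing enzymes, was higher in the HGLI minus LGHI difference (0.36, unadjusted p = 0.0498 by limma). NFE2L1, the factor that raises proteasome genes when the protease is inhibited, was at 12.11 ± 0.33, 12.12 ± 0.42, 12.05 ± 0.34 and 12.27 ± 0.08 (SD, n = 4) in the order of groups used above, with a gain effect of -0.04 (standard error 0.162, unadjusted p = 0.786).

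Markers of other liver cells were read beside the members. Of 9 markers of Kupffer cells and macrophages, 9 had an interaction above 0 (median 0.78). MARCO and CD163, scavenger receptors of these cells, were at an unadjusted p of at most 0.05 over the 4 groups, beside 2.33% of all transcript clusters. MARCO was at 8.78, 9.40, 10.41 and 9.16 in the HGHI, 9.59, 8.24, 8.77 and 10.64 in the HGLI, 8.16, 8.58, 8.67 and 8.52 in the LGHI and 10.05, 9.21, 10.21 and 10.29 in the LGLI steers. All 4 LGHI steers lay below all HGHI and LGLI steers, with an interaction of 1.58 (standard error 0.621, unadjusted p = 0.0216). CD163 was at 11.09, 11.12, 11.29 and 10.57 in the HGHI, 11.10, 11.03, 11.25 and 12.30 in the HGLI, 10.87, 10.25, 10.84 and 9.56 in the LGHI and 11.38, 10.45, 11.19 and 10.65 in the LGLI steers. The HGLI steers were all above the LGHI steers, by 1.04 in the mean (standard error 0.333). In that HGLI minus LGHI difference only 2 of the 9 markers were above 0 (median -0.34), so CD163 went against most of its list. The mean of the 9 ranged from 9.99 to 12.08 in the HGHI, 10.09 to 11.94 in the HGLI, 10.30 to 12.18 in the LGHI and 11.20 to 12.34 in the LGLI steers. Of 10 hepatocyte markers 7 had an interaction above 0 (median 0.16), and of 8 markers of T and NK cells 2 (median -0.51). The count was 5 of 7 for sinusoidal endothelium (median 0.30), 5 of 7 for stellate cells and fibroblasts (median 0.22), 2 of 4 for cholangiocytes (median 0.06), 3 of 4 for erythroid cells (median 0.20) and 0 of 3 for B cells (median -0.42). Over all transcript clusters the share above 0 rose from 28.4% below a mean value of 6 to 69.2% at 13 or above. Kupffer cell and macrophage markers had mean values of 8.73 to 15.04, and T and NK cell markers 5.90 to 9.16. The cell types were not compared at equal signal. The part of these cells in the interaction of the proteasome genes was not tested.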

How the data were processed

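Liver RNA of 16 steers was hybridised to Affymetrix bovine arrays, 1 per steer. The authors ran Signal Space Transformation, GC count normalization and RMA in Affymetrix Expression Console to make the deposited log2 values. The submitters' processing notes also name Transcriptome Analysis Console. For the build and for software versions, the sources used here give nothing. Gene symbols came from GEO's platform annotation (18790 transcript clusters with 1 symbol, 385 with several, 7598 with none), and all 48 members had the same symbol in RefSeq by Entrez ID.

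The deposited log2 values were used without change. limma 3.58.1 in R 4.3.3 was fitted with 1 mean per group, and its moderated F and contrasts were adjusted after Benjamini and Hochberg across the 26773 transcript clusters. The fit was tested on simulated data. Two-sided exact permutation tests for single genes went over all partitions into 4 groups of 4 or, for a contrast, all 12870 choices of 8 of 16 steers (70 choices of 4 of 8 for the most against least feed-efficient groups). Tables and figures were made in Python 3.11.15 with NumPy 2.4.6, pandas 2.3.3 and matplotlib 3.10.9. The array sets were split at the widest gap between sorted array medians. Differences within a set are between means of 1 to 3 steers.

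The members and all lists were chosen with earlier results of these data known. Full values are given for members at an unadjusted p of at most 0.05 in any test by limma, the active subunits, PSMD14, and the member with the smallest p over the 4 groups in each ring or part, and of the other lists for genes at that p over the 4 groups and for PSMB8, PSMB9, PSMB10 and NFE2L1. Other members are named where they are the extremes of a range or nearest to a threshold. Alternatives were ordinary F, quantile normalization, median subtraction, leaving out dim transcript clusters, the array set as a block, array weights, 1 transcript cluster for each symbol, and leaving out each steer.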

Additional observations from a re-analysis of the deposited data

Results flagged for a closer look

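In 8 of 192 sets of 4 steers (48 members in 4 groups), 1 steer lay far from the other 3, where chance gives about 1 in 20, or 9.6. LGLI steer 4 was the one apart in 5 of these, with low values for PSMC2 (11.70), PSMD11 (11.18), PSME4 (9.03), PSMG4 (7.47) and PSMD9 (9.36). It was the only steer of its group in array set 2, in which 72.6% of all transcript clusters were lower. The others were PSMA1 in HGHI steer 1 (low, 10.69), PSMB7 in HGLI steer 3 (low, 12.26) and PSMD5 in LGLI steer 2 (high, 9.86).

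The gain effect differed between high and low intake, at an unadjusted p of at most 0.05 for the interaction in limma, for PSMA1 (0.75), PSMB5 (0.62) and PSMD2 (0.50). None of these passed the adjustment over all transcript clusters (adjusted p = 1.00 by limma for each).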

How the results depend on the processing

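Counts of members at an unadjusted p of at most 0.05 were small and moved with single steers. Over the 4 groups the count of 2 became 4 by the ordinary F and 0 to 3 with 1 steer left out (0 without HGLI steer 2 or 4, 3 without LGHI steer 2). For gain, 2 became 4 with the array set as a block (PSMG1 and PSMA7 added), 4 by ordinary variances (PSMC5 and PSMG3 added), and 2 to 4 with 1 steer left out (4 without HGHI steer 1 or LGHI steer 3). For intake, 0 became 1 with array weights and 1 after quantile normalization (PSMG1 in both), and 0 to 3 with 1 steer left out. It was 3 without LGLI steer 4, 2 without LGHI steer 2, and 1 without HGHI steer 1 or 3, HGLI steer 3, LGHI steer 1 or LGLI steer 2. For the interaction, 3 became 0 after quantile normalization and 2 to 5 with 1 steer left out (5 without LGHI steer 2). For the HGLI minus LGHI difference, 3 became 5 with the array set as a block (PSMG1 and PSMG3 added), and 2 to 3 with 1 steer left out. The cause of these moves was not tested.

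The count of interactions above 0 stayed within 39 to 45 of 48 under all 22 alternatives. The block, ordinary F and 1 transcript cluster for each symbol leave the interaction estimates the same, so they could not change this count. The median interaction of the assembly factors was 0.070 to 0.37 with 1 steer left out, the highest without LGLI steer 4. The gain effect was above 0 for 20 of 48 members as deposited, 28 after quantile normalization, and 29 after median subtraction and with the block, so its direction over the list depends on the scaling. PSMF1 and PSMD5 kept direction and threshold in the gain effect and in the HGLI minus LGHI difference under all 23 alternatives. For that difference, leaving out an HGHI or LGLI steer or fitting the set as a block cannot move the estimate, only its p. Ordinary F, leaving out dim transcript clusters and 1 transcript cluster for each symbol move only the p in both contrasts. PSMA1 (0.68) and PSMB5 (0.52) lost the interaction's threshold after quantile normalization alone. No paired analysis was possible because the labels give no replicate numbers. The study's methods describe 4 harvest days on which every group gave 1 steer, but the labels tie no steer to a day, so the day could not be fitted as a block.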
